A study of Homo sapiens with 6 samples.

Results

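The genes described here encode inhibitors of cyclin-dependent kinases (CDKs), and they were read from an RNA-seq table of human RPE1 cells with and without depletion of the centriolar protein OFD1. The members were the lines of the table whose gene name was CDKN1A, CDKN1B, CDKN1C, CDKN2A, CDKN2B, CDKN2C, CDKN2D or CDKN3 on a primary chromosome. They were picked by gene name, with earlier results of these data known, and make up 8 of 60666 genes. Of the 8 genes, 7 reached the mean of 1 FPKM needed for testing, and CDKN1C did not. FPKM is a fragment number divided by transcript length and by the mapped fragments of the sample, so that levels of different genes can be set side by side per length.

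hTERT-RPE1 is a telomerase-immortalized line derived from human retinal pigment epithelium. All samples came from hTERT-RPE1-TOShOFD1 cells, a line carrying a lentiviral Tet-On cassette in which doxycycline switches on a short hairpin RNA against OFD1, and all carry the genotype label WT. The 3 control samples were grown without doxycycline and the 3 shOFD1 samples with 200 ng/mL doxycycline for 72 h. The labels and methods do not say that the line is 1 clone, and no sample had doxycycline without an induced hairpin, so effects of the drug and of the hairpin cannot be told apart. The study treats the samples as biological replicates, but the labels do not say that they came from separate cultures, and p-values measure only the spread between these samples.

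CDK inhibitors are small proteins that hold back the kinases driving cells from G1 into S phase and mitosis. The CIP/KIP family (p21, p27 and p57) binds cyclin–CDK complexes of several kinds, above all those of CDK2. The INK4 family (p15, p16, p18 and p19) binds CDK4 and CDK6 and keeps them from their D-type cyclins. CDKN3 shares the gene symbol but belongs to neither family. It is a phosphatase (KAP) that removes the activating phosphate from CDK2 and CDK1. Cells that leave the cycle often accumulate p27 or p21, while several INK4 genes are also known targets of E2F factors, which are active in cycling cells.

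The hairpin's target was lower in the treated samples. OFD1 had 3.34, 3.62 and 3.44 FPKM in control and 0.795, 0.763 and 1.43 FPKM in shOFD1 samples. This was a log2 fold change of -1.75 (adjusted p = 0.00085, limma). Summed over all genes, FPKM came to 408302 to 414547 in control and 433262 to 493510 in shOFD1 samples, with the highest sum in shOFD1 replicate 2. The depth of the libraries is unknown, because the table holds no counts. The sample labels name retina as the tissue. The photoreceptor genes RCVRN and CRX were at 0 in all samples, and 1 of 9 markers of that list (RBPMS) reached a mean of 1 FPKM over the 6 samples. Of 12 markers of retinal pigment epithelium, 2 (MITF and OTX2) reached that mean, and the visual-cycle gene RPE65 stayed below it. The summed level of this list was 8.08 to 8.96 FPKM in control and 10.0 to 13.1 FPKM in shOFD1 samples. The highest of these sums, in shOFD1 replicate 2, held 4.33 FPKM of BEST1, which was below 0.05 FPKM in the other samples. Without BEST1 the sums were 8.03 to 8.95 FPKM in control and 8.74 to 10.7 FPKM in shOFD1 samples and overlapped. The summed level of the retina list was 26.5 to 27.7 FPKM in control and 30.1 to 35.7 FPKM in shOFD1 samples. RBPMS alone made up most of it, at 25.8 to 27.4 and 29.9 to 35.4 FPKM, and did not pass the test (adjusted p = 0.151, limma). The part of these marker levels in the results was not tested. Of 7 filament and adhesion genes, 5 reached a mean of 1 FPKM (KRT8, KRT18, KRT7, VIM and CDH2). The summed level of the list was 4555 to 4812 FPKM in control and 3956 to 4370 FPKM in shOFD1 samples. VIM made up most of it, at 4288 ± 148 and 3763 ± 155 FPKM (SD), and did not pass the test (adjusted p = 0.474, limma). CDH2 was lower (adjusted p = 0.0387, limma). KRT8 and KRT18 were higher without overlap but did not pass the test, and KRT7 overlapped.

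The inhibitors did not move as a block. Both measurable CIP/KIP genes, CDKN1A and CDKN1B, were about 1.4 times higher in shOFD1 cells. The INK4 genes CDKN2C and CDKN2D and the phosphatase gene CDKN3 fell below the control level by more than 1 on the log2 scale. The INK4 genes CDKN2A and CDKN2B did not pass the test. Of the 7 genes tested, 2 were thus called higher and 3 lower at an adjusted p under 0.05 (limma, Benjamini-Hochberg over 12025 genes). Over all genes tested, 5.07% (610) were called higher and 11.9% (1429) lower. Those totals were 251 and 904 without control replicate 1 and 244 and 867 without control replicate 3. The higher total was 321 without shOFD1 replicate 1, 1077 without replicate 2 and 398 without replicate 3. The groups did not overlap for 3 genes that were higher and 3 that were lower, beside 13.8% and 22.3% of all genes tested.

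**Figure D1:**
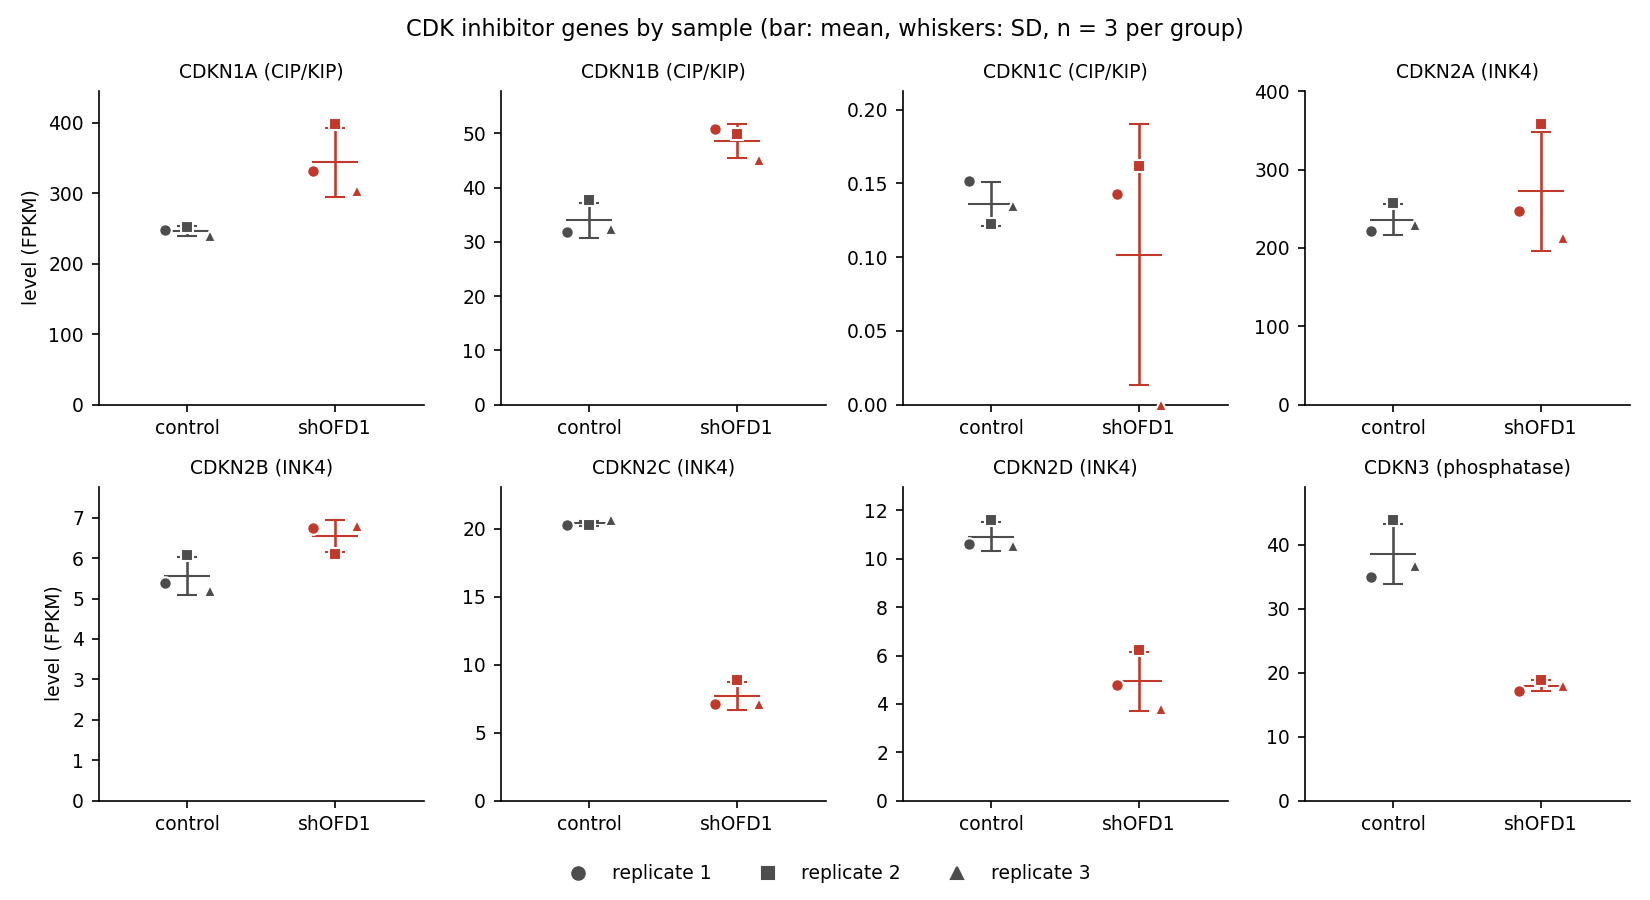
Level of each of the 8 CDK inhibitor genes (FPKM, vertical axis, starting at 0) in the 3 control and 3 shOFD1 samples, with 1 marker per sample, a bar at the mean and whiskers of 1 SD. All shOFD1 samples lay above the control samples for CDKN1A, CDKN1B and CDKN2B and below them for CDKN2C, CDKN2D and CDKN3, while the groups overlapped for CDKN2A and CDKN1C.

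The first CIP/KIP gene, CDKN1A (ENSG00000124762, GRCh38 chr6:36676460-36687337, plus strand), encodes p21, the classic p53-induced inhibitor. It had 248, 252 and 239 FPKM in control replicates 1, 2 and 3. The shOFD1 replicates had 331, 398 and 303 FPKM. All 3 treated samples were higher than every control, and replicate 2 was the highest of them. The mean rose from 246 ± 6.64 to 344 ± 48.9 FPKM (SD, n = 3 each), which is 140% of control. The log2 fold change was 0.47 with a standard error of 0.140 (95% interval 0.16 to 0.78, adjusted p = 0.0406, limma). Exact permutation of the 6 values gave p = 0.1, two-sided, the smallest that 3 samples against 3 allow.

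CDKN1B (ENSG00000111276, GRCh38 chr12:12715058-12722369, plus strand) encodes p27, an inhibitor that is plentiful in resting cells. Its level was 31.8, 37.7 and 32.3 FPKM in the control samples. In the shOFD1 samples it was 50.8, 49.9 and 45.0 FPKM. The lowest treated sample stood above the highest control. The mean rose from 34.0 ± 3.28 to 48.6 ± 3.10 FPKM (SD, n = 3 each), which is 143% of control. In the fit the log2 fold change was 0.52 with a standard error of 0.127 (95% interval 0.24 to 0.80, adjusted p = 0.0173, limma), and the exact permutation p was 0.1.

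Both calls were lost in some of the alternatives. When every sample was scaled to the same total (TPM), the median log2 fold change of all genes moved by -0.15, to -0.18. CDKN1A then stood at 0.33 (adjusted p = 0.0725, within 0.0105 to 0.157 over its alternatives) and CDKN1B at 0.37 (adjusted p = 0.0622, within 0.00136 to 0.104). Scaling to a common total shifts the genes of a sample alike, and relative to the median of all genes the difference stayed at 0.50 for CDKN1A and 0.55 for CDKN1B. After quantile normalization it was 0.31 for CDKN1A and 0.50 for CDKN1B relative to that median. Both calls were kept with quantile, median-of-ratios and same-total scaling without mitochondrially encoded genes. Adjusted p was there 0.0224 to 0.0380 for CDKN1A and 0.00714 to 0.0208 for CDKN1B (limma). CDKN1A lost the call without control replicate 1 (0.48), 2 (0.49) or 3 (0.45) and without shOFD1 replicate 1 (0.49). CDKN1B lost it without control replicate 1 (0.47), control replicate 3 (0.48) or shOFD1 replicate 1 (0.49). The direction stayed positive for both genes in all 18 alternatives. In TPM, CDKN1A was at 608, 609 and 577 in control and 745, 807 and 699 in shOFD1 samples, so the groups did not overlap on that scale either.

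CDKN1C (ENSG00000129757, GRCh38 chr11:2883213-2885775, minus strand), the imprinted gene of p57, was close to the bottom of the scale. It had 0.152, 0.122 and 0.134 FPKM in control samples. In shOFD1 samples it had 0.143 and 0.162 FPKM in replicates 1 and 2 and was listed at 0 in replicate 3. The groups overlapped, and exact permutation gave p = 0.9. At levels this near 0 a difference could not be seen in these samples. With no filter on low genes the log2 fold change was -0.35 (adjusted p = 0.687, limma).

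CDKN2C (ENSG00000123080, GRCh38 chr1:50960745-50974634, plus strand) encodes p18, an INK4 protein that binds CDK6 and CDK4. Control samples held a narrow range of 20.3, 20.3 and 20.6 FPKM. The shOFD1 samples had 7.09, 8.88 and 7.14 FPKM. Every treated sample lay far below every control. The mean went from 20.4 ± 0.202 to 7.70 ± 1.02 FPKM (SD, n = 3 each), equal to 37.7% of control. This was a log2 fold change of -1.40 with a standard error of 0.135 (95% interval -1.70 to -1.10, adjusted p = 6.2e-05, limma), and the exact permutation p was 0.1. Only 1.73% of all genes tested had a lower log2 fold change.

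CDKN2D (ENSG00000129355, GRCh38 chr19:10566460-10569059, minus strand) encodes p19, an INK4 protein whose level is known to vary through the cell cycle. It was at 10.6, 11.6 and 10.5 FPKM in control samples. In the shOFD1 samples it was at 4.78, 6.24 and 3.78 FPKM. The treated samples were all lower and more spread than the controls. The mean fell from 10.9 ± 0.599 to 4.93 ± 1.24 FPKM (SD, n = 3 each), or 45.2% of control, with a log2 fold change of -1.16 (standard error 0.179, 95% interval -1.55 to -0.76, adjusted p = 0.00125, limma). Exact permutation gave p = 0.1.

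CDKN3 (ENSG00000100526, GRCh38 chr14:54396849-54420218, plus strand), the phosphatase gene, had 34.9, 43.8 and 36.7 FPKM in control samples. It had 17.2, 18.9 and 17.9 FPKM in shOFD1 samples. All treated values were lower, and they were closer together than the controls. The mean fell from 38.5 ± 4.71 to 18.0 ± 0.839 FPKM (SD, n = 3 each), equal to 46.7% of control. On the log2 scale the change was -1.09 with a standard error of 0.131 (95% interval -1.38 to -0.80, adjusted p = 0.000254, limma), and the exact permutation p was 0.1. CDKN2C, CDKN2D and CDKN3 kept their direction and their call in all 18 alternatives. In bulk RNA, fewer cells that express a gene and less of its RNA per cell cannot be told apart, which holds for each of these levels.

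CDKN2A (ENSG00000147889, GRCh38 chr9:21967752-21995301, minus strand) was the INK4 gene with the highest level. It encodes p16 and, from another first exon, p14ARF, an inhibitor of MDM2. The single value per gene does not separate the 2 transcripts. Control samples had 221, 258 and 230 FPKM, and shOFD1 samples 247, 358 and 213 FPKM. The treated samples spanned the control range, with replicate 2 above and replicate 3 below all controls. The means were 236 ± 19.3 and 273 ± 76.0 FPKM (SD, n = 3 each). The log2 fold change of 0.17 (standard error 0.184, 95% interval -0.23 to 0.58, adjusted p = 0.570, limma) did not pass the test, and exact permutation gave p = 0.7. Without shOFD1 replicate 2 the value was -0.04 (adjusted p = 0.836, within 0.263 to 0.927 over its alternatives), and after quantile normalization it was -0.01 relative to the median of all genes.

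CDKN2B (ENSG00000147883, GRCh38 chr9:22002903-22009305, minus strand) lies beside CDKN2A and encodes p15, which TGF-β signalling induces in epithelial cells. Its level was 5.38, 6.09 and 5.19 FPKM in control samples and 6.74, 6.10 and 6.80 FPKM in shOFD1 samples. The groups did not overlap, though shOFD1 replicate 2 exceeded control replicate 2 by a small margin. The means were 5.55 ± 0.471 and 6.55 ± 0.388 FPKM (SD, n = 3 each). The log2 fold change of 0.24 (standard error 0.142, 95% interval -0.07 to 0.55) did not pass the test across all genes (adjusted p = 0.291, limma). In TPM, shOFD1 replicate 2 had 12.4 and fell below the lowest control of 12.5, and the log2 fold change was 0.09 (adjusted p = 0.749, limma). It was 0.36 after quantile normalization (adjusted p = 0.0613) and 0.31 with array weights (adjusted p = 0.0514), neither of which passed the test.

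**Figure D2:**
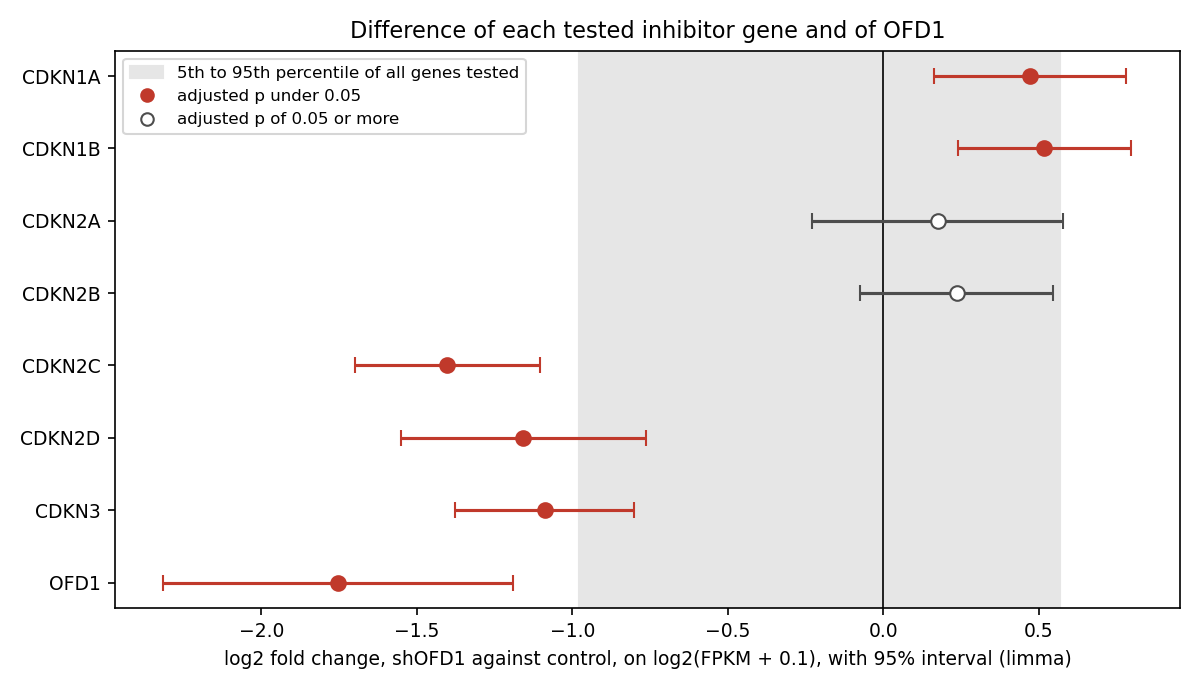
Log2 fold change of shOFD1 against control on log2(FPKM + 0.1) (horizontal axis) with its 95% interval from limma, for the 7 tested inhibitor genes and for OFD1, over a grey band from the 5th to the 95th percentile of all genes tested (-0.98 to 0.57). The values of CDKN2C, CDKN2D and CDKN3 lie left of the band, those of CDKN1A and CDKN1B inside it near its right edge, and the intervals of CDKN2A and CDKN2B cross 0.

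In control cells the order of levels per length was CDKN1A, CDKN2A, CDKN3, CDKN1B, CDKN2C, CDKN2D, CDKN2B and CDKN1C. Of neighbours in this order, CDKN1A and CDKN2A overlapped between samples, as did CDKN3 and CDKN1B. The other neighbours did not. In shOFD1 cells CDKN1B stood above CDKN3 without overlap, at 48.6 against 18.0 FPKM. CDKN2B and CDKN2D overlapped there, with means of 6.55 and 4.93 FPKM.

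The families were also summed within each sample, as a description of how the inhibitor transcripts were made up. The CIP/KIP sum was 280, 290 and 271 FPKM in control and 382, 448 and 348 FPKM in shOFD1 samples. The groups did not overlap, and CDKN1A contributed most of the sum. The INK4 sum was 257, 296 and 266 FPKM in control and 266, 379 and 230 FPKM in shOFD1 samples. These groups overlapped. CDKN2A alone made up 86.5 ± 0.638% of the sum in control and 93.2 ± 1.07% in shOFD1 samples (SD, n = 3 each). Its value does not separate p16 from p14ARF, which is not an INK4 protein, so the sum and the shares may include p14ARF RNA. The share of CDKN2C and CDKN2D together was 11.5 ± 0.639% in control and 4.40 ± 0.381% in shOFD1 samples.

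Ratios within a sample do not depend on how its total was scaled. CDKN1A over CDKN1B was 7.29 ± 0.568 in control and 7.07 ± 0.785 in shOFD1 samples (SD, n = 3 each), with overlapping groups. CDKN1B over CDKN2C was 1.66 ± 0.168 in control and 6.37 ± 0.767 in shOFD1 samples, with no overlap. The CIP/KIP sum over the summed levels of the kinases CDK2 and CDK1 was 3.89 ± 0.244 in control and 11.2 ± 1.87 in shOFD1 samples, again with no overlap. Of its parts, CDK2 and CDK1 together were at 72.2 ± 6.08 FPKM in control and 35.2 ± 1.31 FPKM in shOFD1 samples. The INK4 sum over CDK4 and CDK6 was 3.52 ± 0.279 and 3.64 ± 0.623, and the groups overlapped. Most of that sum is CDKN2A, with p16 and p14ARF not separated, so this ratio is not one of INK4 RNA alone. CDKN3 over CDK1, one of its substrates, was 0.716 ± 0.0275 and 0.736 ± 0.0665, also with overlap. CDKN3 over CDK2, the other substrate, was lower in the treated samples, at 2.07 ± 0.144 in control and 1.69 ± 0.163 in shOFD1 samples, with no overlap. CDKN3 over the proliferation gene MKI67 was 1.63 ± 0.423 in control and 2.97 ± 0.897 in shOFD1 samples, with no overlap. The groups overlapped for CDKN2C over MKI67, at 0.857 ± 0.113 and 1.29 ± 0.511, and for CDKN2D over MKI67, at 0.460 ± 0.0896 and 0.839 ± 0.420. CDKN2D over E2F1 was 0.514 ± 0.0107 and 0.747 ± 0.148, and CDKN2C over E2F1 was 0.963 ± 0.0501 and 1.17 ± 0.106, neither with overlap. Both INK4 genes thus fell less than E2F1, which had a log2 fold change of -1.68. Most genes tested would do so, because only 1.73% had a lower log2 fold change than CDKN2C (-1.40).

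The sequence around the start sites of the members, called or not, was read for short words known from cell cycle promoters. RefSeq promoters (GRCh38.p14, 250 bases before to 50 bases from the start) were found for 7 of the 8 genes, with 10 start sites in all. The word GGGCGG, the core of SP1 boxes, was in 7 of the 10 promoters, of 6 genes, and in 45.0% of 35116 promoters of all genes. These shares were not matched for base composition. Bases G and C made up 46.3% to 74.3% of the member promoters, beside a median of 58.7% over all promoters. The word TTTGAA, the core of the cell cycle homology region (CHR) of late cell cycle genes, was in 1 of the 10, that of CDKN3, and in 15.2% of all. The FOXO word GTAAACA was in 0 of the 10 and 3.42% of all promoters. The E2F words TTTCCCGC, TTTGGCGC, TTTCGCGC and TTTGCCGC were in 0 of the 10 and 3.31% of all. Both strands were searched, and words could overlap. The windows below, 1 per gene, are shown because they belong to the 5 genes that passed the test, and capitals mark 1 word in each. CDKN1A held 4 SP1 words, CDKN1B 1 and CDKN2D 3, while 2 promoters of CDKN2C held 6 and 1. Windows within annotated UTRs were not printed, and of the others 1 was picked per gene by hand. In the CDKN1A window a further GGGCGG, which begins at base -40 and shares 1 base with the marked word, is in lower case.
CDKN1A: aggcgggcccGGGCGGggcggttgta
CDKN1B: agcctcggcgGGGCGGctcccgccgc
CDKN2C: gtgaatcgagGGGCGGgcttttggca
CDKN2D: caggccctgtGGGCGGaacgccgtaa
CDKN3: ccgcgcgtctTTCAAAggtcttctag
The words of CDKN1A (chr6:36678659-36678684, plus strand) and CDKN1B (chr12:12717287-12717312, plus strand) begin at bases -45 and -71 from the start site. Both windows lie in introns of longer transcripts of their genes in GENCODE version 44. The CDKN2C window (chr1:50970181-50970206, plus strand, base -54) is likewise intronic to longer transcripts, and that of CDKN2D (chr19:10569120-10569145, minus strand, base -156) lies outside any annotated gene. In CDKN3 (chr14:54396827-54396852, plus strand, base -170) the CHR word is read on the opposite strand, so that its complement is printed, and 4 bases of the window belong to an exon of a longer transcript. The SP1 word was thus found in genes that rose and in genes that fell, and a match describes these letters only.

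The inhibitors act on, and are removed or induced by, other proteins whose genes were read from lists written by function. Over all genes tested the median log2 fold change was -0.03, and 5.07% were called higher and 11.9% lower. The counts of each list below stand beside these shares. Of the cyclins and CDKs that the inhibitors bind, 11 of 13 were tested, 0 were called higher and 9 lower (limma), with a median of -0.91. At an unadjusted p under 0.05, 0 were higher and 10 lower. CCNE2, a cyclin E gene, was at 6.66 ± 0.849 FPKM in control and 1.11 ± 0.0399 FPKM in shOFD1 samples (log2 fold change -2.47). CDK6 was at 10.2 ± 0.775 and 2.59 ± 0.757 FPKM (-1.98), and CDK1 at 53.7 ± 4.78 and 24.5 ± 1.20 FPKM (-1.12). CDK4, the other INK4 partner, was at 67.6 ± 6.91 and 76.9 ± 8.87 FPKM and did not pass the test (adjusted p = 0.408, limma). The summed level of CDK4 and CDK6 was 77.8 ± 6.71 and 79.5 ± 8.15 FPKM, with overlap.

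Genes for turnover and export of p21 and p27 proteins (ubiquitin ligase subunits and their helpers) were all tested, 15 of 15. Of them 0 were called higher and 4 lower, with a median log2 fold change of -0.26, and at an unadjusted p under 0.05 1 was higher and 5 lower (limma). DTL, the substrate receptor that destroys p21 at replicating DNA, was at 7.73 ± 0.653 FPKM in control and 2.68 ± 0.603 FPKM in shOFD1 samples (-1.52). PCNA, its docking platform, was at 122 ± 9.39 and 64.9 ± 4.68 FPKM (-0.91). CKS1B, the cofactor with which SKP2 recognizes p27, was at 67.5 ± 10.2 and 38.7 ± 6.27 FPKM (-0.80). SKP2 itself, at 4.32 ± 0.322 and 3.71 ± 0.686 FPKM, did not pass the test (adjusted p = 0.419, limma).

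Among transcription activators of inhibitor genes, 13 of 18 were tested, 0 were called higher and 6 lower, with a median of -0.31. At an unadjusted p under 0.05, 1 was higher and 6 lower (limma). E2F1 went from 21.2 ± 1.08 to 6.56 ± 0.354 FPKM (log2 fold change -1.68). KLF6, a zinc finger activator of CDKN1A, went from 22.6 ± 2.23 to 11.3 ± 1.64 FPKM (-1.0), and SMAD3, a transducer of TGF-β signals, from 24.0 ± 0.185 to 13.4 ± 1.90 FPKM (-0.85).

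Of the repressors of inhibitor genes, 17 of 19 were tested, 0 were called higher and 2 lower, with a median of -0.03, and at an unadjusted p under 0.05 0 were higher and 3 lower (limma). EZH2, of the Polycomb complexes that silence CDKN2A in many cells, went from 12.7 ± 0.784 to 5.35 ± 0.293 FPKM (-1.23). ID1 was at 46.2 ± 1.50 and 36.2 ± 4.30 FPKM (-0.36) and did not pass the test (adjusted p = 0.0834, limma).

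CDKN1A is a target of p53, and the list of other p53 targets was read beside it. Of 20 genes, 19 were tested, 6 were called higher and 1 lower, with a median log2 fold change of 0.31. SESN1, a stress-induced inhibitor of mTORC1 signalling, rose from 4.27 ± 0.288 to 9.67 ± 1.01 FPKM (1.16), and its relative SESN2 from 3.72 ± 0.376 to 6.84 ± 1.01 FPKM (0.86). XPC, a DNA damage sensor, fell from 8.59 ± 0.699 to 4.99 ± 0.809 FPKM (-0.78). The other called genes, all higher, were BTG2, BBC3, GADD45A and CCNG1. The number called higher was 2 without control replicate 1, 3 without control replicate 3 and 10 with array weights.

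Of the pocket proteins and E2F factors, through which CDK4 and CDK6 act, 12 of 13 were tested, 1 was called higher and 5 lower, with a median of -0.36. RBL1, the gene of p107, went from 4.15 ± 0.521 to 1.28 ± 0.445 FPKM (-1.66). E2F5, a repressive E2F, was the 1 higher gene, from 3.06 ± 0.292 to 6.87 ± 0.232 FPKM (1.14). E2F1 counts in this list and among the activators. Without control replicate 1, 3 genes of the list were called lower.

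Other brakes on CDKs and growth were divided. Of 13 genes, 12 were tested, 2 were called higher and 3 lower, with a median of 0.06. PKMYT1, the kinase that inhibits CDK1, went from 30.7 ± 3.27 to 9.98 ± 1.43 FPKM (-1.62), and CABLES1, an adaptor for CDKs, from 8.75 ± 0.314 to 5.15 ± 0.319 FPKM (-0.75). The antiproliferative gene BTG2 went from 1.14 ± 0.144 to 2.32 ± 0.179 FPKM (0.97). BTG2 and GADD45A are also in the list of p53 targets. The number called higher was 0 without control replicate 1, 1 without control replicate 3 or shOFD1 replicate 1, and 4 with array weights.

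All 15 of 15 proliferation genes were tested, 0 were called higher and 15 lower, and the median log2 fold change was -1.28 (limma, also 0 higher and 15 lower at an unadjusted p under 0.05). The median lay close to the values of CDKN2C, CDKN2D and CDKN3. RRM2, a subunit of the enzyme that makes deoxyribonucleotides, went from 54.4 ± 3.37 to 12.3 ± 0.519 FPKM (-2.14). The spindle checkpoint kinase gene BUB1 went from 23.1 ± 1.02 to 7.87 ± 0.539 FPKM (-1.54), and MCM2 of the replicative helicase from 19.2 ± 1.38 to 6.71 ± 0.159 FPKM (-1.50). The part of a lower share of cycling cells in the levels of the inhibitor genes was not tested.

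**Figure D3:**
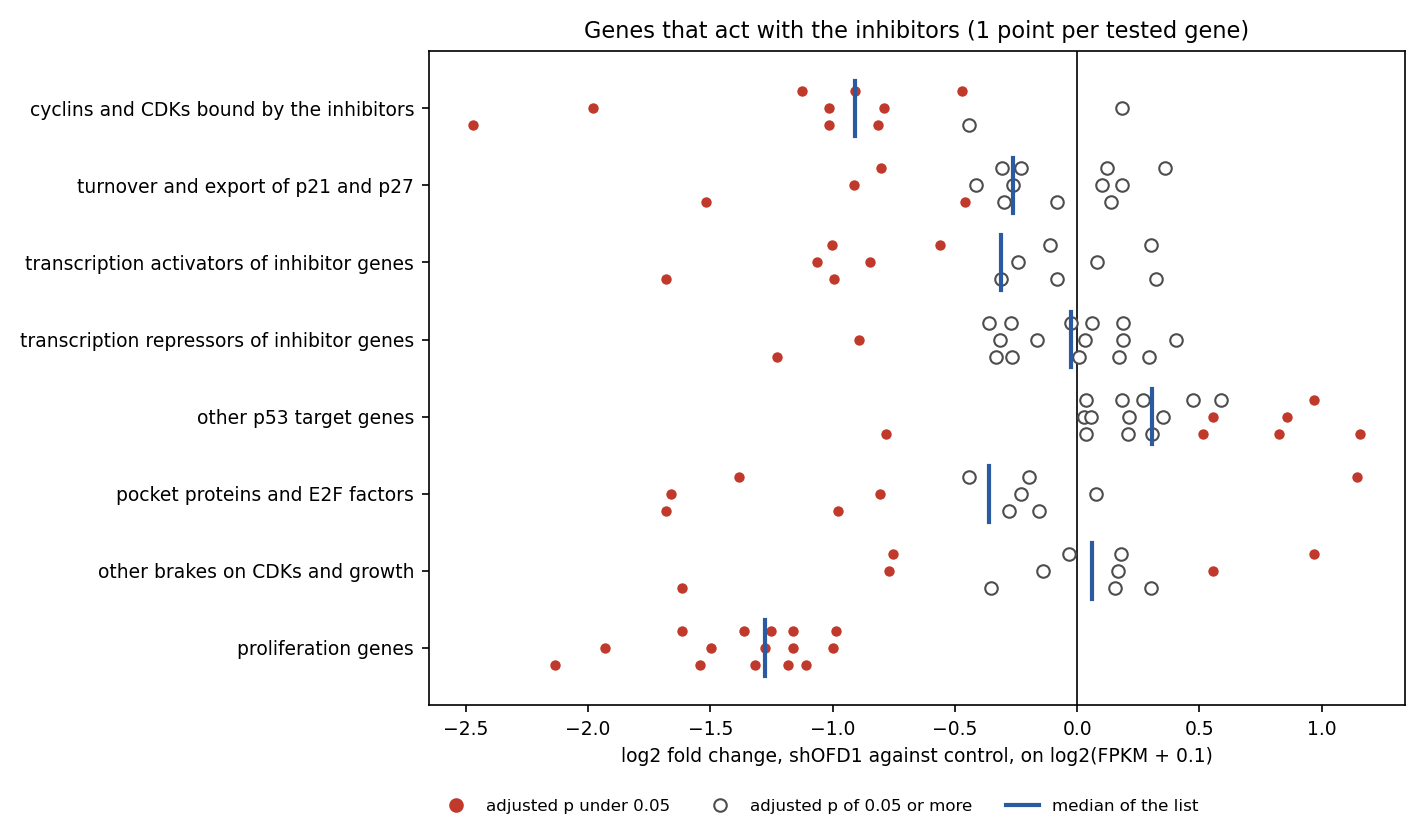
Log2 fold change of shOFD1 against control on log2(FPKM + 0.1) (horizontal axis) for each tested gene of 8 lists around the CDK inhibitors, with filled points for an adjusted p under 0.05, open points for the others and a blue line at each list's median. All proliferation genes lie left of 0 with a median of -1.28, and the p53 targets have the highest median, 0.31.

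The genes whose levels followed each tested member most closely were sought over the 6 samples by Pearson correlation of log2(FPKM + 0.1). Only tested protein-coding genes were ranked, and the members and all genes of the function and marker lists were left out. The listed proliferation genes, cyclins and CDKs could thus not appear. The correlations describe 6 points that share 2 conditions, and each tested member had between 123 and 457 ranked genes above 0.95. CDKN3 was most like UBE2C (r = 1.00) and ZWINT (r = 0.999), genes of the mitotic ubiquitin and kinetochore machinery. CDKN2C was most like COX7C and TUBB (r = 0.998 each), and CDKN2D most like ZNF212 and HIRIP3 (r = 0.998 each). COX7C, a subunit of cytochrome oxidase, was at 127 FPKM in control and 17.1 FPKM in shOFD1 samples. CDKN1A was followed by SNRPN (r = 0.997) and GNG5 (r = 0.996), and CDKN1B by FBXW9 and CFAP36 (r = 0.997 each). The likeness for CDKN2A was with GPX1 (r = 0.996) and TSPO (r = 0.995), both of which were also highest in shOFD1 replicate 2, at 450 and 425 FPKM. For CDKN2B it was with ARG2 (r = 0.997) and PLS1 (r = 0.996).

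The neighbours of the members on the chromosomes were read in the same fit. Among the nearest protein-coding genes on each side that were tested and are not members, MTAP alone was called. Over all genes tested, 11.9% were called lower, so 1 such gene among these neighbours is not a result about the locus. MTAP, an enzyme gene of methionine salvage 30101 bases from CDKN2A, had 6.44, 7.38 and 6.35 FPKM in control and 3.80, 2.70 and 3.15 FPKM in shOFD1 samples. All treated samples were lower, with a log2 fold change of -1.05 (adjusted p = 0.00154, limma), while CDKN2A and CDKN2B beside it did not pass the test. CDKN2B-AS1, the antisense RNA of this locus, overlaps CDKN2A by 1163 bases and the whole 6403 bases of CDKN2B. It was at 0.392 ± 0.151 FPKM in control and 0.247 ± 0.0480 FPKM in shOFD1 samples (SD, n = 3 each), below the filter. The strand setting of the authors' counting is not given in the sources used here, so reads in the overlap could not be assigned with certainty, and another overlapping gene, AL359922.1, was at 0 in all samples. FAF1, 478 bases from CDKN2C, had a log2 fold change of -0.20 (adjusted p = 0.367, limma), and KRI1, 429 bases from CDKN2D, one of -0.31 (adjusted p = 0.201). CNIH1, 3343 bases from CDKN3, was at 0.29 (adjusted p = 0.173). SRSF3, before CDKN1A, was at -0.27 (adjusted p = 0.311), and APOLD1, after CDKN1B, at -0.25 (adjusted p = 0.335). The non-coding gene AC008115.3, which lies within CDKN1B on the same strand, was at 1.62 ± 0.299 and 1.14 ± 0.352 FPKM and did not pass the test (-0.49, adjusted p = 0.272). DINOL, antisense within CDKN1A, was at most 0.304 FPKM in any sample.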

How the data were processed

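The deposited table holds 1 FPKM value per gene and sample. By the methods and the submitters' processing notes, the authors aligned paired-end NovaSeq reads of NEBNext Directional libraries with HISAT2 (version 2.0.5) to Ensembl GRCh38, version 94, and computed FPKM with StringTie. The labels also name frozen retina and a TruSeq kit. Of 67130 genes, 6464 on alternative contigs were at 0. No 2 samples were identical. Depth is unknown: 14.1% to 18.8% of low single-exon values lay within 0.02 of whole multiples, so reads were not recovered. Groups came from the labels.

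limma (3.58.1, R 4.3.3; trend of variance on mean) was fitted to log2(FPKM + 0.1) of the 12025 genes that averaged 1 FPKM or more, two-sided, with Benjamini-Hochberg adjustment, after tests on simulated data. The added 0.1 understates changes of low genes. Single genes had exact permutation tests (scipy 1.17.1, Python 3.11.15, numpy 2.4.6, pandas 2.3.3). Named genes were the members, OFD1, the 3 smallest p-values per list and overlapping or nearest genes. The 2 most correlated protein-coding genes outside the members and lists were added per tested member. CDK4 and SKP2 are outside this rule and were chosen after their values were seen, as were the genes named to complete short counts. Members and lists were chosen with earlier results of these data known.

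The fit was repeated with pseudocounts of 1 or 0.01, without a filter or with one at 5 FPKM, median-of-ratios, TPM (with and without mitochondrially encoded genes) and quantile scaling, no trend, array weights, a replicate block, protein-coding genes alone, and each sample left out. No protein sequences were used here, and some genes under the naming rule are not reported here.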

Additional observations from a re-analysis of the deposited data

How the results depend on the processing

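Over 18 alternatives, 452 of 503 values kept their direction and their side of the threshold (counts within 1.5 times), and 1 reversed. CDKN2B, CDKN2C, CDKN2D and CDKN3 kept both in all 18, and OFD1 in the 17 in which it was tested. CDKN1A lost its call with no filter (log2 fold change 0.47, adjusted p = 0.144), in TPM (0.33, 0.0725) and without the trend (0.47, 0.0631), and CDKN1B in TPM (0.37, 0.0622). With each sample left out in turn, CDKN1A ranged from 0.36 to 0.56 and lost its call in 4 of 6 cases, CDKN1B from 0.47 to 0.60 and lost it in 3 of 6, and CDKN2A from -0.040 to 0.34, reversing without shOFD1 replicate 2. The number of inhibitor genes called higher, 2 as reported, was 1 with no filter, 0 in TPM, 1 without the trend and 0 to 2 with a sample left out. Fits with a sample left out hold fewer samples, but the number called did not always fall. Without shOFD1 replicate 2, all genes called rose to 1077 higher and 1741 lower, and both totals fell with any other sample left out. The cause of the lost calls was not tested. All genes called higher numbered 610 (244 to 1693) and lower 1429 (823 to 2263). Of 324 counts over lists and all genes, 32 moved by over 1.5 times: p53 targets higher, 6, ranged from 2 to 10, other brakes higher, 2, from 0 to 4, turnover genes lower, 4, from 2 to 6, and pocket and E2F genes lower, 5, from 3 to 5. Lists with 0 called higher gained up to 2 for turnover genes and repressors and 1 for activators. The 1 higher pocket or E2F gene, E2F5, averaged 4.97 FPKM. It was not tested with the filter at 5 FPKM, the setting in which that count was 0.

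The samples share replicate numbers, but deviations of same-numbered samples correlated at only 0.058, 0.048 and 0.011, so the numbers were not taken to pair them. A replicate block gave CDKN1A 0.47 (adjusted p = 0.0161, limma) and CDKN1B 0.52 (adjusted p = 0.0152), and the counts of inhibitor genes stayed at 2 higher and 3 lower. Over all genes tested, the block gave 762 called higher and 1534 lower, against 610 and 1429 without it. Not every sample correlated best with its own number: shOFD1 replicate 3 did so with control replicate 1 (0.050). Depth is unknown, so counting error cannot be given.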
